A study of Mus musculus with 6 samples.

Results

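The genes described here are 36 regulators and structural components of mitosis: cyclins and kinases that start it, checkpoint and kinetochore proteins, spindle motors, cytokinesis factors and partners of the anaphase-promoting complex. They were taken by gene symbol, with 1 probeset per gene, the brightest over 6 arrays where a gene had several. Of the 36, 35 were measured among 19938 genes in all, and Ccnb1, which encodes cyclin B1, had no probeset with its symbol alone and is not reported. The arrays came from mouse embryonic stem (ES) cells carrying the 2C::tomato fluorescent reporter, passaged on gelatin in ES-KOSR medium and sorted by fluorescence into positive and negative cells, with 3 arrays of each numbered 1 to 3. All 6 samples are titled wild type. The shared protocol names vehicle or 4OHT (4-hydroxytamoxifen) treatment to delete Kdm1a, and the titles do not say which treatment these samples had. As published, the tomato protein of this reporter is driven by a retroviral promoter that is active at the two-cell stage. The labels do not say whether the 3 samples of a group were separate cultures or derive from 1 clone, so the p-values reflect sample-to-sample spread that may be technical.

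Mitosis is driven by cyclin-dependent kinase 1 bound to its cyclins. It includes chromosome attachment to the spindle, a checkpoint that waits for all attachments, and destruction of cyclins and of securin through the anaphase-promoting complex. Most of these genes are transcribed late in the cell cycle and their mRNA is low in resting cells, so they serve as markers of proliferation. ES cells divide quickly and spend little time in G1. The comparison addresses whether cells that express the reporter carry another level of this programme than cells that do not.

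Median log2 values per array ran from 6.95 to 7.04, and correlations between arrays across genes between 0.969 and 0.995. All 10 ES cell markers were measured, and their mean log2 level was between 11.66 and 12.12 in each array. The 7 measured markers of the two-cell-like state that the reporter is known for were all higher in positive cells, with median log2 differences of 3.06, 5.98 and 1.38 in pairs 1, 2 and 3. A pair here is the positive and the negative array with the same number. These markers were defined with the same kind of reporter, so their direction is no independent support, and their highest mean level was in positive array 2. In sorted bulk cells a change in the share of one kind of cell cannot be told apart from a change in RNA per cell.

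Mitosis and spindle genes stood at nearly the same level in reporter-positive and reporter-negative cells. None of the 35 passed the test (limma adjusted p between 0.910 and 0.998, Benjamini-Hochberg over all genes), where 0% of all genes passed. The 7 measured two-cell-like markers, with a median log2 difference of 3.685, did not pass either (limma adjusted p = 0.910). The adjusted test therefore cannot tell the members from genes with large differences. At an unadjusted p under 0.05 there was 1 member, Cenpe, beside 4.40% of all genes. Blocking on replicate number gave 4 (Cenpe, Cenpf, Cdk1 and Birc5), beside 12.0% of all genes, and again none passed after adjustment (smallest adjusted p of a member 0.401 with limma). The log2 difference, positive minus negative, ran from -0.20 for Nuf2 to 0.35 for Cenpe, which is 1.27-fold. The 95% intervals of the fit for single members lay between -0.49 and 0.72 on the log2 scale, that is between 1.40-fold lower and 1.65-fold higher, and 34 of the 35 held 0. All 35 differences were under 0.5 in size, as were 97.3% of all genes.

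The small differences pointed mostly upward. Of the 35 members, 31 were higher and 4 lower (Nuf2, Bub1b, Ccnb2 and Cenpa), with a median log2 difference of 0.13. Over all genes 39.8% were higher and the median was -0.04, and without the dimmest 30% of genes, a filter that all 35 members passed, 46.4% were higher and the median was -0.02. Without positive array 2, 24 of the 35 were higher and the median was 0.06. In 8 members (Cdk1, Plk1, Aurkb, Incenp, Bub3, Cenpe, Nusap1 and Anln) all 3 positive arrays lay above all 3 negative arrays, beside 4.08% of all genes and 5.05% without the dimmest 30%. In 1, Nuf2, they all lay below, beside 7.15% of all genes. Centring each array on its median left 4 members higher and 1 lower without overlap, beside 725 and 2023 of all 19938 genes.

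**Figure D1:**
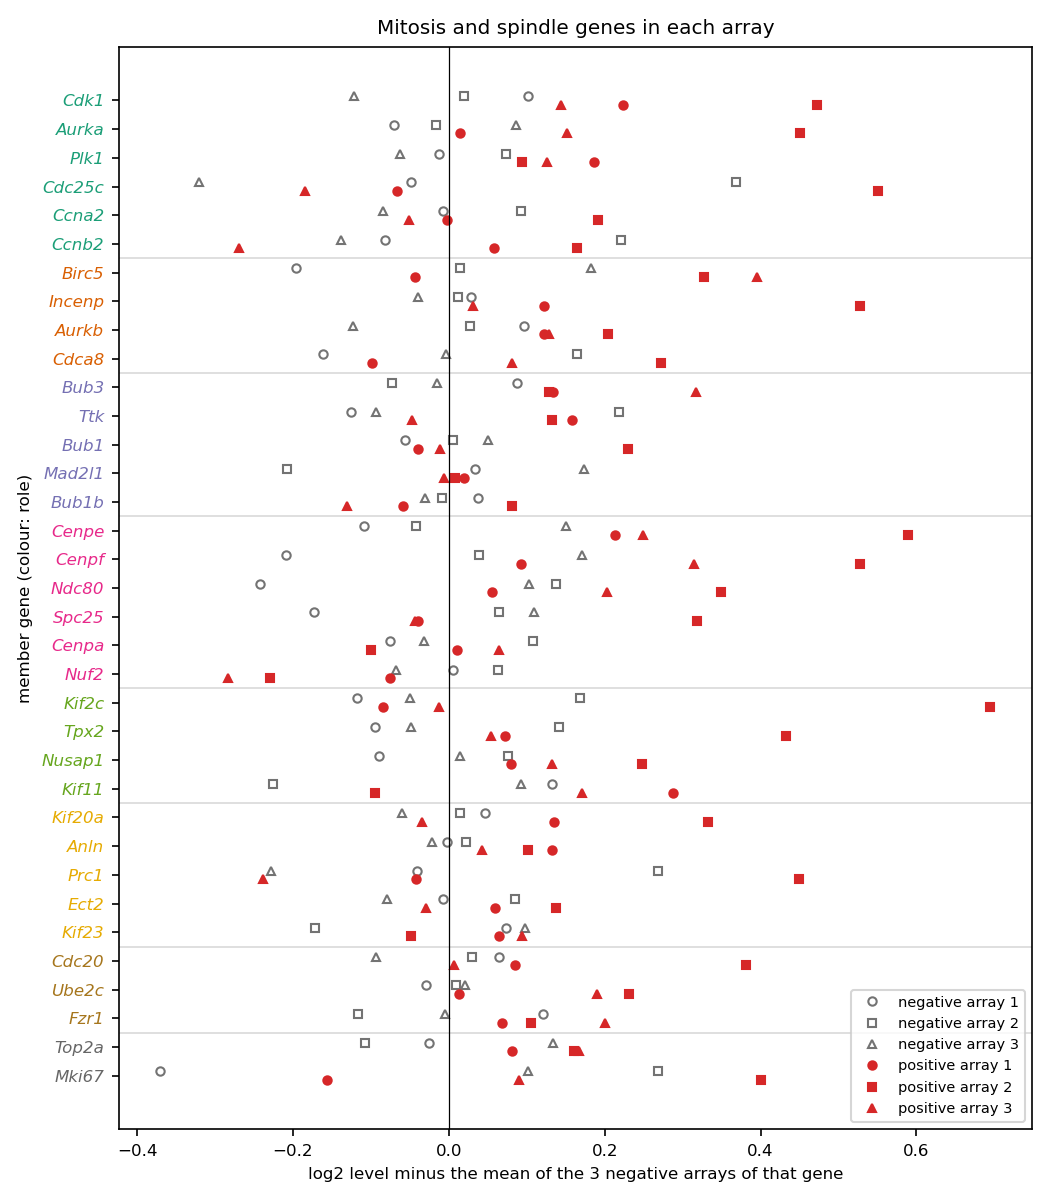
Log2 level of each of the 35 members in each array, less the mean of that gene's 3 negative arrays (open grey symbols, negative; filled red symbols, positive; circle, square and triangle for arrays 1, 2 and 3; gene names coloured by role). Positive array 2 is the highest array for 22 of the 35 genes, and Nuf2 is the only member whose positive arrays all lie to the left of its negative arrays.

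**Figure D2:**
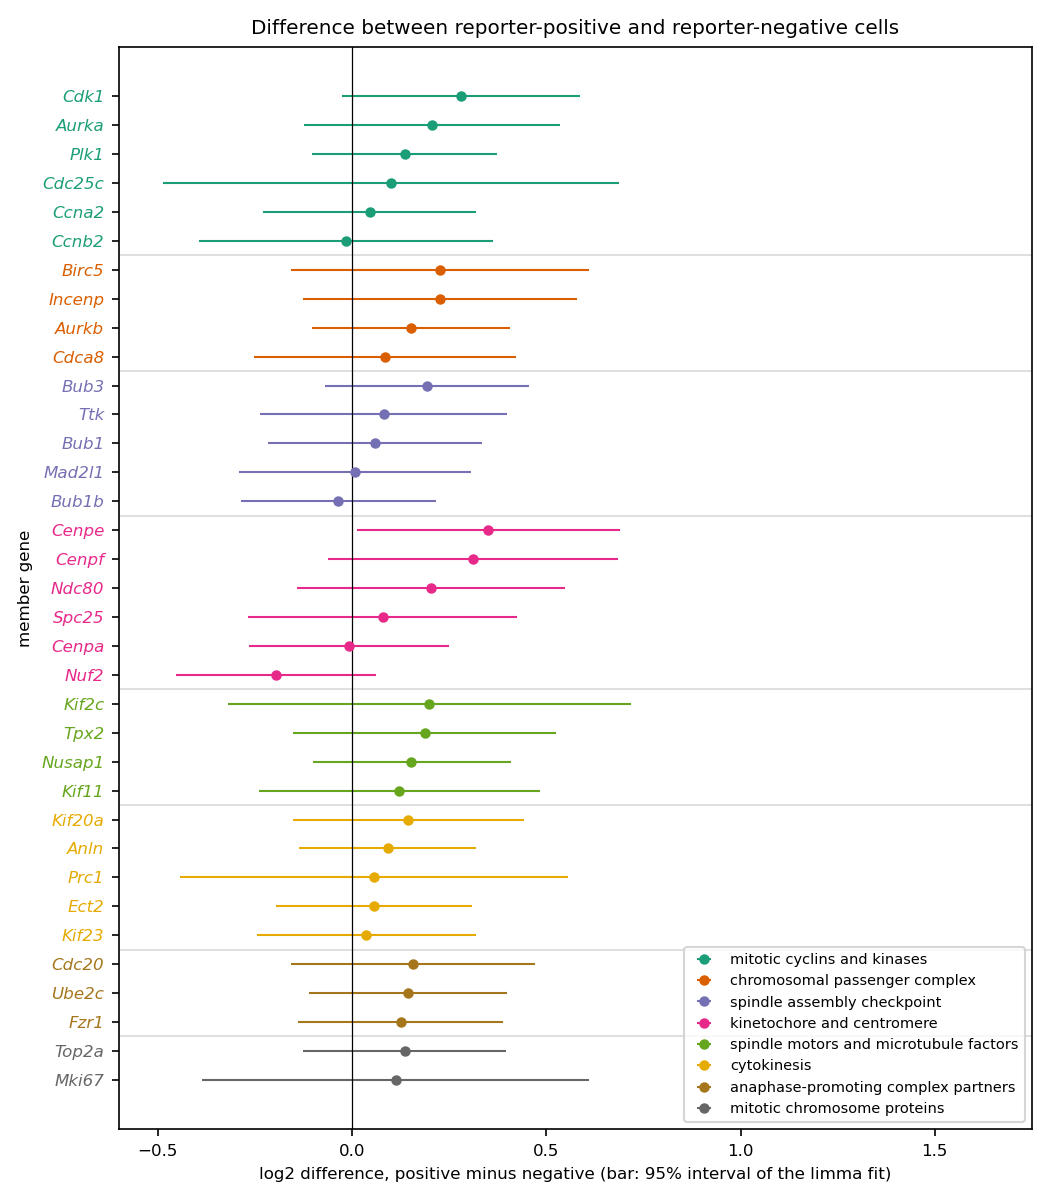
Log2 difference, positive minus negative, of the 35 members, grouped by role, with bars for the 95% interval of the limma fit over 3 against 3 arrays. The interval of Cenpe alone lies above 0, and no interval reaches a log2 difference of 1.

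Many mitotic genes share a promoter architecture: a CHR element (cell cycle genes homology region), bound by the DREAM and MuvB complexes, and CCAAT boxes, bound by NF-Y. Of these complexes DREAM holds the genes off until late in the cycle. RefSeq promoter windows of assembly GRCm38.p6, from 250 bases before to 50 bases from the gene start, were found for 30 of the 36 members, counting Ccnb1. The windows of Cdc25c, Aurkb, Tpx2, Kif20a, Incenp and Ccna2 were not used here. The CHR element was searched as TTTGAA or TTCGAA and the CCAAT box as CCAAT, on both strands, and matches of different motifs may share end bases. A CHR element stood in the windows of 23 of the 30 members (76.7%), against 21.7% of all 27025 genes with a window and 2974 of the 15614 of them tested on the array. CCAAT also stood in 23 (76.7%), against 41.1% of all genes, and 20 members (66.7%) held both, against 9.65%. Related lists, described below, also held these motifs often. CCAAT stood in 84.6% of mitotic entry regulators, 64.3% of further spindle genes, 63.3% of further kinetochore genes and 63.6% of DNA replication genes. For the CHR element the shares in the same order were 38.5%, 53.6%, 46.7% and 27.3%. The E2F element, TTTGGCGC or TTTCGCGC, was found in Cdk1 alone among the members (3.33%), against 0.93% of all genes and 8 of 22 genes of a DNA replication list (36.4%). These are matches of letters and not measured binding sites.

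The promoters below are shown because they show that layout beside members without it. The first 8 are all the members with a CHR element wholly inside the 100 bases before the gene start, and the last 2 are those of Cenpe and Nuf2, the members with the highest and the lowest difference between positive and negative cells. Each run is the 100 bases before the start, 5′ to 3′ along the gene, from GRCm38.p6, with CHR elements (TTTGAA, or TTCAAA on the other strand) and CCAAT boxes (CCAAT or ATTGG) in capitals.
Cdk1, chr10:69352913-69353012, minus strand: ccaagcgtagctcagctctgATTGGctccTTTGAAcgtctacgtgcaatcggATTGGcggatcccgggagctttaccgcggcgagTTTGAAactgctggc
Cdc20, chr4:118437344-118437443, minus strand: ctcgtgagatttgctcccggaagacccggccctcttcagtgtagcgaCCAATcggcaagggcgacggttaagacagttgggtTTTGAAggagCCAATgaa
Ube2c, chr2:164769829-164769928, plus strand: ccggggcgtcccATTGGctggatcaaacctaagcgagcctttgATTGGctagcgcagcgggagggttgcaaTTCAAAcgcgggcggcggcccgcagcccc
Bub3, chr7:131560270-131560369, plus strand: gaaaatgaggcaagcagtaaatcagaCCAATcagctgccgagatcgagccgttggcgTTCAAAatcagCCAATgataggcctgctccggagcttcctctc
Prc1, chr7:80294376-80294475, plus strand: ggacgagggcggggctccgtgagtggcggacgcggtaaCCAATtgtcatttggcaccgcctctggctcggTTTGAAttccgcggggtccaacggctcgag
Kif11, chr19:37376282-37376381, plus strand: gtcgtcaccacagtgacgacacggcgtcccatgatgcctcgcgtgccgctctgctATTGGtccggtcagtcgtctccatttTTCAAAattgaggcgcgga
Top2a, chr11:99024190-99024289, minus strand: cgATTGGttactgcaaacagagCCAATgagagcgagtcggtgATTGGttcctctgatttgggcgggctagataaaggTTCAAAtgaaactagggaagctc
Mki67, chr7:135716380-135716479, minus strand: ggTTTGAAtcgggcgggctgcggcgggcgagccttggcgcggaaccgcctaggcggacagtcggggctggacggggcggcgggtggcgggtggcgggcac
Cenpe, chr3:135212463-135212562, plus strand: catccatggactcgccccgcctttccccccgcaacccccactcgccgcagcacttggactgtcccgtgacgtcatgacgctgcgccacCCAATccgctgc
Nuf2, chr1:169531465-169531564, minus strand: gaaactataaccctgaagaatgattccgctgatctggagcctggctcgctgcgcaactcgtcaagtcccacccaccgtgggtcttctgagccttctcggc

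The distance from the first base of the nearest CCAAT box upstream to the first base of the CHR element was 33 bases for the proximal element of Cdk1, 35 for Cdc20 and 28 for Ube2c. In Bub3 it was 31 bases, in Prc1 32, in Kif11 26 and in Top2a 35 for the element closest to the start. The CHR element of Mki67 shown above starts at position -98 from the gene start, and its nearest CCAAT box lies 43 bases further upstream, outside the printed run. The other printed element of Cdk1 starts only 9 bases after the first base of its CCAAT box. Over all members with a CHR element after a CCAAT box, the distances ran from 9 bases to 153 in Bub1b. They included 102 in Cenpa, 73 in Cenpf and 9 in Kif23. Cenpe held a CCAAT box and no CHR element in its window, and Nuf2 held neither. Members with the layout and members without it thus both occur among those without overlap between the groups.

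**Figure D3:**
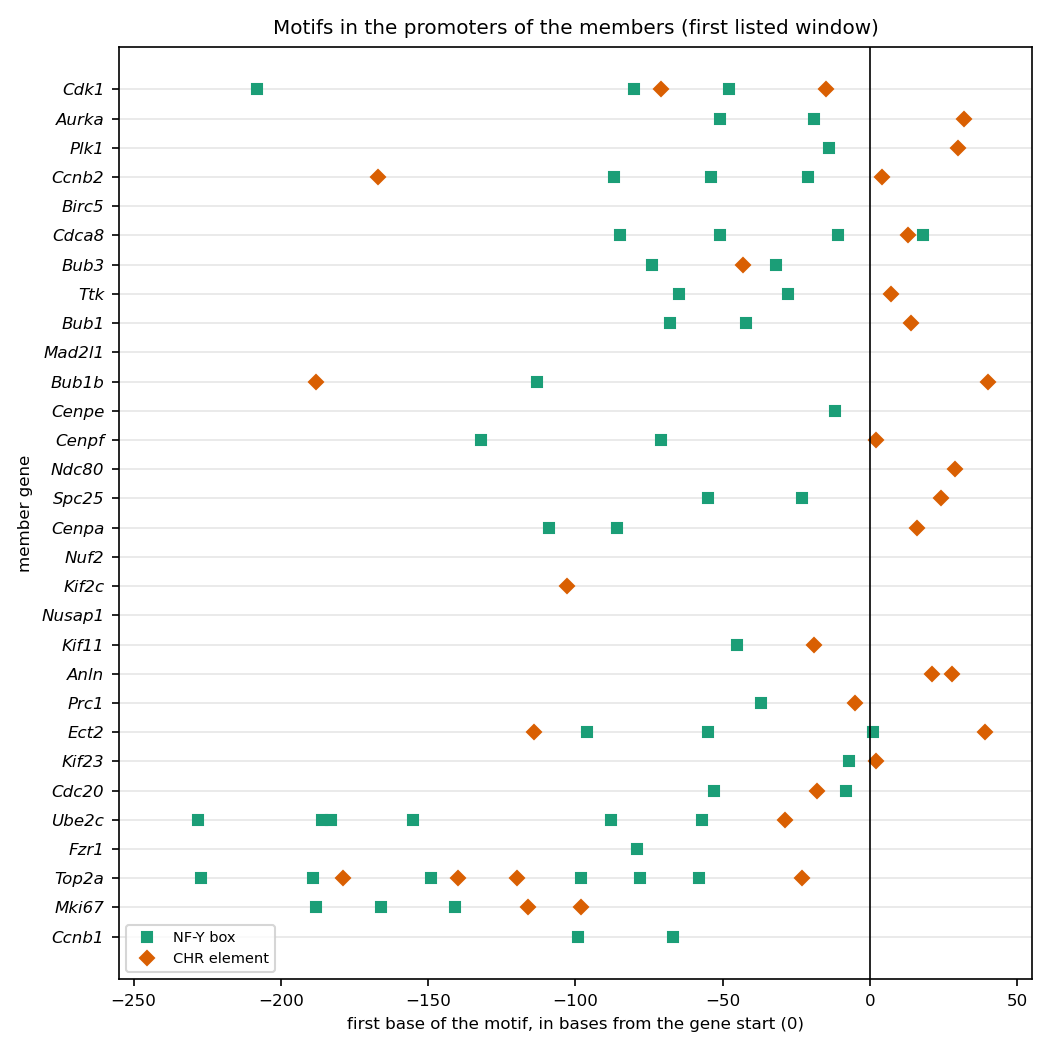
Position of CHR elements (orange diamonds) and CCAAT boxes, labelled NF-Y box after the factor that binds them (green squares), in the first listed promoter window of 30 members, in bases from the gene start at 0. In 20 of the 23 members with a CHR element a CCAAT box lies upstream of it, and Birc5, Mad2l1, Nuf2 and Nusap1 show neither motif.

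Among the cyclins and kinases that start mitosis, 5 of 6 measured genes were higher in positive cells, with a median log2 difference of 0.12. Without positive array 2 there were 3 higher and 3 lower with a median of 0.03, and Aurka stood at 0.08 and Cdk1 at 0.18. Cdk1 (probeset 10369815), the kinase that drives entry into mitosis, had log2 levels of 12.10, 12.01 and 11.87 in negative arrays 1, 2 and 3 and of 12.22, 12.47 and 12.14 in positive arrays 1, 2 and 3. All 3 positive arrays lay above all 3 negative arrays, and the difference was 0.28 (SE 0.13, limma adjusted p = 0.910). Aurka (probeset 10490104), the centrosomal Aurora kinase, was at 11.68, 11.73 and 11.83 in negative and 11.76, 12.20 and 11.90 in positive arrays. Positive arrays 2 and 3 lay above all negative arrays and positive array 1 did not, and the difference was 0.21 (SE 0.14). Plk1 (probeset 10557156), the polo kinase that acts in centrosome maturation and at kinetochores, was at 12.62, 12.71 and 12.57 in negative and 12.82, 12.73 and 12.76 in positive arrays. Its groups did not overlap, though negative array 2 and positive array 2 differed by only 0.02, and the difference was 0.14 (SE 0.10).

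The other 3 genes of this role varied more by replicate number than by reporter, with 88.8% to 95.4% of their variance over the 6 arrays going with the number. Cdc25c (probeset 10458195), a phosphatase that activates Cdk1, was at 8.52, 8.94 and 8.25 in negative and 8.50, 9.12 and 8.38 in positive arrays. Both arrays numbered 2 were its highest, and it was the only member past the test by replicate number (limma F test, adjusted p = 0.048), beside 5.65% of all genes. It was named for that after its values were seen, and it did not pass with a second quantile normalization or with array weights. Ccna2, cyclin A2, differed by 0.05 (SE 0.12) and Ccnb2, cyclin B2, by -0.02 (SE 0.16), and array 2 was the highest of its group for each.

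All 4 members of the chromosomal passenger complex, which corrects wrong attachments of chromosomes and later guides cytokinesis, were higher in positive cells and in each of the 3 pairs, with a median log2 difference of 0.19. Without positive array 2 the median was 0.10, with 3 of 4 higher, and Incenp stood at 0.08. Aurkb (probeset 10377405), its kinase, was at 11.82, 11.75 and 11.60 in negative and 11.84, 11.92 and 11.85 in positive arrays. The groups were separate by a narrow margin, with a difference of 0.15 (SE 0.11). Incenp (probeset 10465861), the scaffold, was at 10.69, 10.68 and 10.62 in negative and 10.79, 11.19 and 10.69 in positive arrays. Positive array 3 was barely above the highest negative array, and the difference of 0.23 (SE 0.15) was 0.515 in pair 2 against 0.09 and 0.07 in pairs 1 and 3. Birc5 (probeset 10382998), which encodes survivin, was at 9.51, 9.72 and 9.89 in negative and 9.66, 10.03 and 10.10 in positive arrays, with overlap. Its difference was 0.23 (SE 0.16), and 0.01 with array weights. Cdca8, borealin, differed by 0.09 (SE 0.14), and 91.4% of its variance over the 6 arrays went with the replicate number.

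Spindle assembly checkpoint genes were the least shifted together with those of cytokinesis, with 4 of 5 higher and a median log2 difference of 0.06, which was 0.01 without positive array 2. That median was -0.05 with array weights and -0.02 without both arrays of number 2, each with 2 of 5 higher. Bub3 (probeset 10558248), which docks checkpoint proteins at kinetochores, was at 11.25, 11.09 and 11.15 in negative and 11.30, 11.30 and 11.48 in positive arrays. Its groups did not overlap, and the difference was 0.19 (SE 0.11). Ttk (probeset 10587508), the kinase also called Mps1, was at 9.96, 10.30 and 9.99 in negative and 10.24, 10.22 and 10.04 in positive arrays, with negative array 2 the highest and a difference of 0.08 (SE 0.14). Bub1, a checkpoint kinase, differed by 0.06, Mad2l1, the Mad2 protein that inhibits Cdc20, by 0.01 and Bub1b, BubR1, by -0.04. These 3 genes had standard errors of 0.11 to 0.13, larger than each difference.

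Kinetochore and centromere genes held both ends of the range. Their median was 0.14, with 4 of 6 higher, and it was 0.08 without positive array 2 and 0.04 without negative array 1. Cenpe (probeset 10496204), the kinesin that moves chromosomes to the spindle equator, was at 10.005, 10.07 and 10.26 in negative and 10.33, 10.70 and 10.36 in positive arrays. The positive arrays were all higher, the difference was 0.35 (SE 0.14, unadjusted p = 0.0441, limma adjusted p = 0.910), and the pairs differed by 0.32, 0.63 and 0.10. Cenpf (probeset 10360985), a large kinetochore protein of late cell cycle, was at 10.003, 10.25 and 10.38 in negative and 10.30, 10.74 and 10.53 in positive arrays. It was higher in all 3 pairs, by 0.31 (SE 0.16), with overlap between positive array 1 and negative array 3. Without positive array 2 the differences were 0.23 for Cenpe and 0.20 for Cenpf, and with array weights they were 0.14 and 0.08.

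Nuf2 (probeset 10359890), a subunit of the Ndc80 complex that holds microtubules, was at 9.95, 10.01 and 9.88 in negative and 9.87, 9.72 and 9.66 in positive arrays. Its positive arrays were all lower, though positive array 1 and negative array 3 nearly met, and the difference was -0.20 (SE 0.11). Of the other subunits of the same complex, Ndc80 differed by 0.20 (SE 0.15) and Spc25 by 0.08 (SE 0.15). Spc24, which is no member and was named after its values were seen, differed by -0.19 (SE 0.16) and was lower in all 3 pairs. Cenpa, the histone H3 variant of centromeres, differed by -0.01 (SE 0.11).

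All 4 spindle motors and microtubule factors were higher in every pair, with a median log2 difference of 0.17, which was 0.09 with 3 of 4 higher without positive array 2. Nusap1 (probeset 10474984), which bundles spindle microtubules, was at 11.35, 11.51 and 11.45 in negative and 11.51, 11.68 and 11.57 in positive arrays. Its pairs were the most even of those without overlap, at 0.17, 0.17 and 0.12, with a difference of 0.15 (SE 0.11). Tpx2 (probeset 10477187), which activates Aurka on the spindle, was at 11.05, 11.29 and 11.10 in negative and 11.22, 11.58 and 11.20 in positive arrays, with overlap and a difference of 0.19 (SE 0.14) that was 0.06 without positive array 2. Kif2c (probeset 10515431), a motor that takes microtubules apart, was at 10.75, 11.03 and 10.82 in negative and 10.78, 11.56 and 10.85 in positive arrays. Its difference of 0.20 (SE 0.22) rested on positive array 2, and without that array it was -0.05. Kif11, the motor that pushes spindle poles apart, was lowest in both arrays numbered 2 and differed by 0.12 (SE 0.15).

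The 5 cytokinesis genes were all higher in positive cells, by a median of 0.06. Anln (probeset 10591781), anillin of the contractile ring, was at 11.94, 11.97 and 11.92 in negative and 12.08, 12.05 and 11.99 in positive arrays. It had no overlap and the smallest standard error of the members (0.10), with a difference of 0.09. Kif20a (probeset 10454709), a motor of the central spindle, was at 11.91, 11.88 and 11.80 in negative and 12.00, 12.20 and 11.83 in positive arrays, a difference of 0.14 (SE 0.13) with overlap, and of 0.05 without positive array 2. Kif23, Ect2 and Prc1, which build and signal from the central spindle, differed by 0.04, 0.06 and 0.06. In Prc1 the replicate number held 95.7% of the variance over the arrays.

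The partners of the anaphase-promoting complex were higher for 3 of 3 genes, by a median of 0.14. Cdc20 (probeset 10515744), the activator that starts anaphase, was at 12.20, 12.17 and 12.04 in negative and 12.22, 12.52 and 12.15 in positive arrays. Positive array 2 alone lay clearly above the negative arrays, and the difference of 0.16 (SE 0.13) was 0.05 without it. Ube2c (probeset 10478572), its ubiquitin-conjugating enzyme, was at 11.68, 11.72 and 11.74 in negative and 11.73, 11.94 and 11.90 in positive arrays, a difference of 0.14 (SE 0.11). Fzr1, the Cdh1 activator that works at mitotic exit and in G1, differed by 0.13 (SE 0.11).

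The commonly used proliferation markers gave no clear shift. Mki67 (probeset 10568714), which encodes the Ki-67 protein that coats mitotic chromosomes, was at 10.95, 11.59 and 11.42 in negative and 11.17, 11.72 and 11.41 in positive arrays. Array 1 was the lowest and array 2 the highest in both groups, the replicate number held 91.9% of the variance, and the difference was 0.11 (SE 0.21). It was -0.03 without positive array 2, -0.07 without negative array 1 and -0.08 with array weights. Top2a (probeset 10390707), the topoisomerase that untangles sister chromosomes, was at 11.37, 11.29 and 11.53 in negative and 11.48, 11.56 and 11.56 in positive arrays. Its difference was 0.14 (SE 0.11), and 0.01 with array weights. A second Top2a probeset, 10390746, lay between 3.47 and 3.94 in all arrays and differed by -0.02.

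Across the 3 pairs the members were higher most often, and by most, in the pair with the strongest reporter programme. The median log2 difference was 0.09 in pair 1, with 28 of 35 members higher, 0.20 in pair 2, with 31 higher, and 0.07 in pair 3, with 26 higher. The same medians over all genes were -0.02, -0.05 and -0.01. Further lists of cell-division genes, described below, had lower medians than the members in pair 2. These were 0.10 for spindle and centrosome genes, 0.001 for condensin and cohesin genes and -0.04 for regulators of mitotic entry. For kinetochore, centromere and checkpoint genes the median was -0.05 (15 of 34 higher), against 0.15 and 0.11 in pairs 1 and 3. It was -0.06 for cytokinesis genes and -0.08 for anaphase-promoting complex and mitotic exit genes. In all 3 pairs 22 members were higher and 1, Nuf2, was lower, beside 15.1% and 23.7% of all genes. Without the dimmest 30% of genes, 19.2% were higher in all pairs.

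Positive array 2 also stood highest in the members' mean level. The mean log2 level over the 35 members was 11.11, 11.20 and 11.15 in negative and 11.20, 11.40 and 11.21 in positive arrays. Positive array 2 was the highest array for 22 of the 35, beside 18.3% of all genes, and negative array 1 was the lowest for 14, beside 13.7%. With 3 pairs, whether the members' difference follows the strength of the reporter programme was not tested.

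Replicate number accounted for more of the members' spread than the reporter did, but by a smaller margin than over all genes. With 2 degrees of freedom against 1 for the reporter, its share of a gene's variance over the 6 arrays was larger than the reporter's in 22 of 35 members, beside 75.7% of all genes. The median share was 48.2% for the number and 29.6% for the reporter over the members, and 55.3% and 13.5% over all genes. At an unadjusted p under 0.05 the F test by number gave 8 members, near the 24.7% of all genes.

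Other genes of cell division were counted from lists by function. Of 34 measured further kinetochore, centromere and checkpoint genes, 26 were higher, with a median log2 difference of 0.09, 4 of them and no lower one without overlap, beside 4.08% and 7.15% of all genes. The median was 0.03 without negative array 3. Over the 6 arrays the largest difference was that of Spdl1, an adaptor of dynein at kinetochores, at 0.47 (SE 0.25). It was -0.04 in pair 1 and 0.21 without positive array 2. Of 34 further spindle and centrosome genes 26 were higher, with a median of 0.10, and Fam83d, a spindle protein, differed by 0.43 (SE 0.24). Without positive array 2 the median of the list was 0.03 and Fam83d stood at 0.14. Its positive array 2 was at 10.38, and the other arrays lay between 9.30 and 9.63. No gene of either list passed the test, and without positive array 2 the higher genes numbered 24 and 19.

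The differences of 4 further lists had medians between -0.01 and 0.05. Of 18 regulators of mitotic entry and cell-cycle transcription factors 12 were higher, with a median of 0.05, and 14 with a median of 0.08 without positive array 2. Without overlap, 2 of the 18 were higher and 1 was lower, beside 4.08% and 7.15% of all genes. The lower one was Pkmyt1, a kinase that inhibits Cdk1, with a log2 difference of -0.22 (SE 0.11). Condensin and cohesin genes were higher for 13 of 19 (median 0.05), with a median of 0.02 without positive array 2, and Esco2, a cohesin acetyltransferase, stood at 0.28 (SE 0.12), or 0.18 without negative array 2. Subunits of the anaphase-promoting complex and mitotic exit genes were higher for 11 of 20 (median 0.04). Of these 20, 3 were lower without overlap (Anapc1 at -0.15, Anapc2 at -0.20 and Anapc4 at -0.305), beside 7.15% of all genes. Only 1 was higher without overlap (Ube2s at 0.22), beside 4.08%. They were named after their values were seen. Cdc14a, a phosphatase, differed by 0.63 (SE 0.29) with overlap, with pairs at 1.22, 0.01 and 0.67. Cdc14a stood at 0.34 without positive array 1 and at 0.97 without positive array 2, and the median of its list ranged from -0.004 to 0.034 with 1 array left out. Further cytokinesis genes were higher for 6 of 14 (median -0.01), a median that ranged from -0.05 to 0.07 with 1 array left out. The formin gene Diaph3 differed by 0.29 (SE 0.21), by 0.11 without positive array 2 and by 0.47 without negative array 2. None of these passed the test either.

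DNA replication and S-phase genes lay on the other side of 0. Of 27 measured genes 5 were higher and 22 lower, with a median log2 difference of -0.09, and 0 passed the test (limma, 1 at an unadjusted p under 0.05, beside 4.40% of all genes). Over all genes 39.8% were higher with a median of -0.04, and without the dimmest 30% of genes 46.4% with a median of -0.02. Without overlap, 4 of the 27 were lower and 1 was higher, beside 7.15% and 4.08% of all genes. By pair the S-phase medians were 0.03, -0.24 and -0.01, against 0.09, 0.20 and 0.07 for the mitotic members, so that pair 2 set the lists furthest apart. Without positive array 2 the S-phase median was -0.05, with 9 of 27 higher. Without both arrays numbered 2 the S-phase median was -0.003, with 12 of 27 higher, and that of the members was 0.08, with 28 of 35 higher. Cdc6, which loads the replicative helicase, was at 9.03, 9.16 and 8.85 in negative and 8.65, 8.49 and 8.70 in positive arrays. Its positive arrays were all lower, and the difference was -0.40 (SE 0.13, unadjusted p = 0.0152, limma adjusted p = 0.910). The difference between the lists was not tested.

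**Figure D4:**
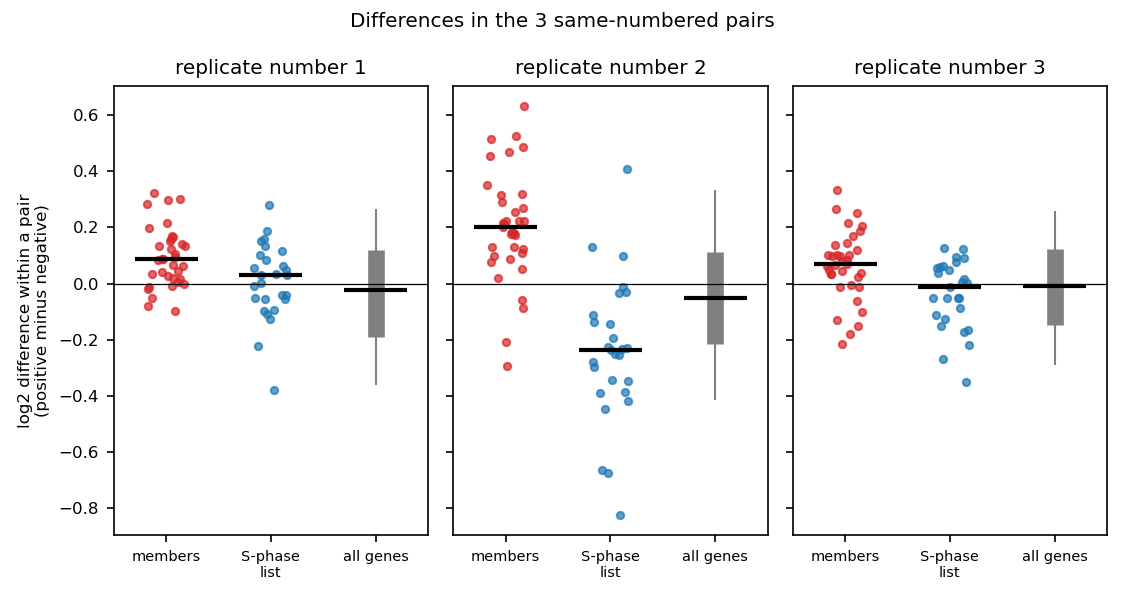
Log2 difference, positive minus negative, in each same-numbered pair for the 35 members (red points), the 27 genes of the S-phase list (blue points) and all genes (grey, thick bar from the 25th to the 75th and thin line from the 10th to the 90th percentile). Black lines are medians, which for the members are 0.09, 0.20 and 0.07 and for the S-phase list 0.03, -0.24 and -0.01.

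Cell-cycle inhibitors and genes linked to quiescence were higher for 9 of 14, with a median of 0.15 and no gene without overlap. That direction turned when single arrays were left out, with 4 of 14 higher and a median of -0.16 without positive array 2 and 5 of 14 and -0.10 without negative array 1. Btg2, an antiproliferative gene, differed by 0.62 (SE 0.44), at 9.10, 9.93 and 9.10 in negative and 9.58, 11.00 and 9.43 in positive arrays, and by 0.12 without positive array 2. Of these 14 genes 7 passed the limma F test by replicate number after adjustment, beside 5.65% of all genes.

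Markers of other cells that such cultures can hold were set beside the members. Fibroblast markers were higher in positive cells for 4 of 12, or for 2 of 12 without positive array 2. Their mean log2 level was 6.83 to 6.86 in negative arrays and 6.65, 6.97 and 6.58 in positive arrays 1, 2 and 3. Primitive endoderm markers were higher for 1 of 11, with mean levels of 7.40 to 7.71 and 7.12 to 7.36, and trophectoderm markers for 5 of 10, with 8.72 to 9.25 and 8.66 to 9.37. ES cell markers were higher for 4 of 10, or for 7 of 10 without positive array 2, and their mean was lowest in positive array 2, at 11.66, against 11.90 to 12.12 in the other arrays. On a log2 array scale no marker has a true 0. The part of these cells in the members' differences was not tested.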

How the data were processed

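RNA from 6 sorted ES cell samples was hybridised to Affymetrix whole-transcript arrays. The authors deposited log2 expression values, with a column for each sample. RMA in Affymetrix Expression Console produced them, per the submitters' processing notes. RMA corrects background, normalizes quantiles and summarises probes on the log2 scale, and can understate differences of dim genes and removes differences in total RNA. Software versions and genome build: not given in the sources used here. The platform annotation gave 21789 probesets with 1 symbol, 1621 with several and 12146 not listed, and 21698 of the first matched RefSeq by identifier. The brightest probeset per gene left 19938 genes.

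Groups and numbers came from the titles. The test was limma 3.58.1 (R 4.3.3, lmFit and eBayes, two-sided, Benjamini-Hochberg over all genes, threshold 0.05), with a limma F test for the replicate number beside the reporter. Its code was tried on simulated data with equal and independent noise for every gene. That trial cannot tell how well the test works on these arrays. Deviations from the group means correlated across genes at r = 0.55, 0.55 and 0.46 in same-numbered arrays, so the numbers were taken to pair them, and the replicate block was an alternative. For differently numbered arrays r lay between -0.52 and 0.20. A share of variance is a sum of squares over the total over 6 arrays. The alternatives were a block, other scalings, a filter on dim genes, mean probesets, array weights, an intensity trend and arrays left out.

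Members with full values were those past the test or without overlap and the 2 with the largest difference in each role, and of each other list the gene with the largest difference. The members and lists were chosen with earlier results of these data known.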

Additional observations from a re-analysis of the deposited data

How the results depend on the processing

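No gene and no member passed the limma test under any of the 16 alternatives. The members' median log2 difference stayed above 0 in all of them, from 0.06 when positive array 2 was left out to 0.17 when negative array 2 was, and 24 to 33 members were higher. With array weights that median was 0.08, with 28 members higher. The 9 members without overlap became 5 with median centring, 16 without both arrays of number 1, and 15 without both arrays of number 2 or of number 3. Leaving out 1 array gave 10 to 15 members, with 15 without positive array 1, and fewer arrays overlap less by construction. Over all genes it gave 1202 to 2194 higher and 1984 to 4400 lower without overlap. Of 336 values of the 21 named members under the alternatives 7 changed sign. Mki67 was at -0.082 with array weights, and from -0.073 (without negative array 1) to 0.246 with 1 array left out, being below 0 also without positive array 2. Cdc25c ranged from -0.126 (without positive array 2) to 0.284, and was -0.06 without negative array 3. Kif2c ranged from -0.048 (without positive array 2) to 0.341, and Ttk was at -0.02 without both arrays of number 1. The 878 genes at an unadjusted p under 0.05 ranged from 221 without both arrays of number 1 to 4851 with array weights, and were 2394 with the replicate block. The members among them were 1 in the main comparison, 4 with the replicate block or array weights, 2 with an intensity trend or without positive array 1, and otherwise 0 or 1. The 1127 genes that differed by replicate number ranged from 806 to 1613, and the members among them from 0 to 3. With the replicate block no call after adjustment changed. The 6 arrays limit the precision, and RMA offers no detection call here.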
